A study of Mus musculus with 12 samples.

Results

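The genes described here encode the proteasome, its regulators and its assembly chaperones. They were the 49 gene symbols of the array annotation that start with Psm followed by a letter from a to g and a digit. Psmc3ip and Psme3ip1 share only the start of the name and encode proteins that are no part of the proteasome, which left 47 genes. Of these, 38 had a probe detected (detection p under 0.01) on at least 4 of the 12 arrays and were tested among 8100 genes in all. The probes of Psma1, Psma3, Psma6, Psma8, Psmb11, Psmc6, Psmd2, Psmd3 and Psmg4 were detected on 0 of 12 arrays, so nothing is said of these 9 genes. Among the 38, 35 were detected on all 12 arrays. The exceptions were Psmd6 (7 arrays in all, split 3, 2 and 2 over DN3, ITNK and LAK), Psmd8 and Psmd9. Psmd9 was detected on 1 DN3, 3 ITNK and 4 LAK arrays, so it passed the detection rule through the groups in which it was brighter.

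The proteasome is the barrel-shaped protease that degrades proteins tagged with ubiquitin. Its 20S core is a stack of alpha and beta rings, and 3 of the beta subunits cut proteins: Psmb5 (chymotrypsin-like activity), Psmb6 (caspase-like) and Psmb7 (trypsin-like). In lymphocytes, and in other cells exposed to interferon gamma, these can be replaced by Psmb8, Psmb9 and Psmb10, which form the immunoproteasome and favour peptides that bind MHC class I molecules. A 19S cap of ATPases and receptor subunits feeds ubiquitin-tagged proteins into the core, and the 11S activator made of Psme1 and Psme2 (PA28 alpha and beta) can take its place.

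Illumina mouse bead arrays were run on 12 RNA samples, 4 each of DN3 thymocytes (T cell precursors negative for CD4 and CD8), ITNK cells (natural-killer-like cells induced from T-lineage cells by loss of the transcription factor Bcl11b) and LAK cells (natural killer cells expanded with IL-2). All 12 labels carry one protocol text, which does not say which step applies to which group. It describes Cre-ERT2; Bcl11b flox/flox thymocytes or splenocytes held for 48 h with 1 µM 4-hydroxytamoxifen, which activates the Cre recombinase, in medium with 5 ng/ml Flt3 ligand and 5 ng/ml IL-7. DN3 thymocytes of Bcl11b CKO/CKO and CKO/+ mice were then sorted, grown with 100 ng/ml IL-2 on OP9-DL1 (stromal cells that carry a Notch ligand), and collected 14 days after the treatment. A 6 to 9 day expansion in 1000 U/ml IL-2 is described for splenic ITNK cells, and no sample is labelled splenic. Which genotype and culture the DN3 and LAK arrays had, whether DN3 RNA came from fresh or cultured cells, and the age of the mice are not stated. The strain entries (C57B6, C57B7 and C57B8 for ITNK, DN3 and LAK) run like a filled-down series and were not used. No label names separate animals or cultures behind the arrays, so the p-values describe the scatter of these samples only, and that scatter may be technical.

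Between 11814 and 13141 probes were detected on each array. Bcl11b itself had log2 signals of 11.41 to 11.92 in DN3, 8.38 to 9.10 in ITNK and 5.25 to 6.01 in LAK; the sources used here do not say whether its probe lies in the floxed part. Of 7 natural killer markers measured, Klrb1c, Klrk1, Tyrobp and Eomes were not detected in any DN3 array, and the linear signal summed over the 7 ran from 948 to 1617 in DN3, 14375 to 16042 in ITNK and 22548 to 27041 in LAK. The 8 DN3 markers summed to 11217 to 12491, 5269 to 6654 and 375 to 533 in the same order, with Ptcra, Rag1 and Dntt not detected in LAK. Of 9 stromal markers all were detected in DN3 and ITNK and 0 of 9 in LAK, and their summed signal was 1485 to 4765 in DN3, 984 to 1454 in ITNK and 189 to 192 in LAK. The sum hides different directions: 5 of the 9 were called lower in ITNK than in DN3, 3 did not pass, and Timp3 was higher. Its mean log2 signal was 5.36 in DN3 and 7.57 in ITNK. Markers of other cells differed too: the 1 measured erythroid marker, Hba-a1, had a signal of 42 to 54 in DN3, 261 to 532 in ITNK and 24 to 44 in LAK, and 4 mast cell markers summed to 414 to 746, 1100 to 1797 and 911 to 1447. These 4 went different ways. In the same order the mean log2 signals were 7.25, 8.21 and 5.15 for Cpa3 and 8.54, 9.98 and 9.94 for Kit. Cma1 was detected in LAK alone, and Hdc in DN3 and ITNK but not in LAK. The B cell marker Cd79b was detected in DN3 and ITNK and not in LAK. Of 2 myeloid markers measured, Cd14 was detected in LAK alone, and Csf1r on 4 DN3, 3 ITNK and 1 LAK arrays. The part that RNA of these cells has in the differences between groups was not tested. In these bulk samples, fewer cells of a type and less RNA per cell cannot be told apart. The slide of each array was inferred from the long number in its sample title. By this number, all LAK arrays and ITNK 1 and 2 shared one slide and all DN3 arrays and ITNK 3 and 4 the other. LAK and DN3 thus never met on a slide, and a fit with slide as an added term (the slide-block fit) compares them through ITNK.

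Psmb8 and Psmb9 lie side by side with the peptide transporter genes: Psmb9, Tap1, Psmb8 and Tap2 are consecutive protein-coding genes on mouse chromosome 17. The starts of Psmb9 and Tap1, which point away from each other, are 225 bases apart. Upstream sequence is printed for the catalytic subunits whose levels differed between LAK and DN3, from RefSeq's GRCm38.p6 promoter windows and cut at the annotated start of transcription, 5′ to 3′ on the strand of the gene. For Psmb9 (chr17:34187331-34187555, minus strand) it is the whole stretch between its start and that of Tap1; for Psmb8 (chr17:34197945-34198194, plus strand), Psmb5 (chr14:54617996-54618245, minus strand) and Psmb6 (chr11:70525107-70525356, plus strand) it is the last 250 bases. Capitals mark the matches to 4 searched motifs.
Psmb9: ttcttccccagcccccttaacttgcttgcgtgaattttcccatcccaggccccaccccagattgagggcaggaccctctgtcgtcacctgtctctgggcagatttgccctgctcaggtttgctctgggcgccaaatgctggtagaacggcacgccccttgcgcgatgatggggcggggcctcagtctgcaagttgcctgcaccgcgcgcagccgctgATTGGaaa
Psmb8: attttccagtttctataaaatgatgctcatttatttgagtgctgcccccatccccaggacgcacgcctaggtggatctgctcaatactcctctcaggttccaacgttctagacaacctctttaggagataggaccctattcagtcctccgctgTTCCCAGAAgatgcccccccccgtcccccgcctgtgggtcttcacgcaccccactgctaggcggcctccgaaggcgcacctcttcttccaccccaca
Psmb5: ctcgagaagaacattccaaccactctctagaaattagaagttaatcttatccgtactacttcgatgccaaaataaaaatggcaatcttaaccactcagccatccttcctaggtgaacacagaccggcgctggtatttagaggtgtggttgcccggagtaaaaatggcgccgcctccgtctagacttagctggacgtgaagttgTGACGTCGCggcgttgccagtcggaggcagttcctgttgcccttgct
Psmb6: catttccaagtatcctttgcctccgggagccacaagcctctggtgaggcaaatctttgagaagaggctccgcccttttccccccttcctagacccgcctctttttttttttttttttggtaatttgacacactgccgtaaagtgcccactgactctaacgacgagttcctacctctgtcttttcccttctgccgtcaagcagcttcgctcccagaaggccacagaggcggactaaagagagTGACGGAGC
The motifs were searched on both strands and may overlap one another: the antioxidant response element (TGACNNNGC, bound by Nfe2l1 and Nfe2l2 with a small Maf protein), the interferon-stimulated response element (2 copies of GAAA with any 2 bases between them, bound by interferon regulatory factors), the gamma-activated site (TTCNNNGAA, bound by Stat proteins) and CCAAT (bound by NF-Y). The Psmb9 stretch holds CCAAT on the opposite strand 8 to 4 bases before the start, and the Psmb8 stretch a gamma-activated site 97 to 89 bases before it. Psmb5 and Psmb6 each hold an antioxidant response element, at 47 to 39 and at 9 to 1 bases before the start. Windows were found for 39 of the 47 genes. The antioxidant response element was in 5 of the 39 (12.8%) against 10.1% of all 27025 RefSeq windows, the interferon-stimulated response element in 3 (7.69% against 3.04%), the gamma-activated site in 2 (5.13% against 7.18%) and CCAAT in 14 (35.9% against 34.5%). The interferon-stimulated response element was in Psmb3, Psmd4 and Psmd9, and in 0 of the 3 immunoproteasome catalytic genes. A match is a run of letters, and these counts are a description.

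Between LAK and DN3 cells, the catalytic subunits that passed the test moved in opposite directions by kind. The immunoproteasome subunits Psmb8 and Psmb9 were lower in LAK, the constitutive subunits Psmb5 and Psmb6 higher, and Psmb10 and Psmb7 did not pass the test. So 4 of these 6 genes were called, a share near that of all 8100 genes in this comparison (60.5%). The direct tests of each immunoproteasome subunit against its counterpart, given below, did not pass after adjustment. The 4 calls held the same sign under every scaling tried, but the drop of Psmb8 and Psmb9 passed under all except median scaling over all probes, where the differences were -0.10 and -0.16. In the slide-block fit only Psmb9 passed, and the calls of Psmb8, Psmb5 and Psmb6 were lost (adjusted p = 0.0945, 0.0603 and 0.286).

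Psmb8 had log2 signals of 11.90, 11.92, 11.98 and 11.84 in DN3, 11.83, 11.41, 11.91 and 11.67 in ITNK, and 11.39, 11.22, 10.90 and 11.42 in LAK. Every LAK array was below every DN3 array, while ITNK overlapped both. The difference between LAK and DN3 was -0.68 ± 0.13 on the log2 scale (SE, n = 4 arrays a group, limma adjusted p = 5.27e-04), and a second Psmb8 probe gave -0.59. With slide as a block it was -0.51 and no longer passed (adjusted p = 0.0945). Psmb8 was also higher in ITNK than in LAK, by 0.48 ± 0.13 (adjusted p = 0.0129), or 0.39 (adjusted p = 0.0923) in the slide-block fit.

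Psmb9 gave 9.64, 9.86, 10.11 and 9.75 in DN3, 9.96, 9.71, 9.51 and 9.47 in ITNK, and 9.52, 9.48, 9.07 and 8.96 in LAK. Again no LAK array reached the lowest DN3 array, and the ITNK arrays spanned the gap. LAK was below DN3 by -0.59 ± 0.16 (adjusted p = 0.00497), and by -0.94 (adjusted p = 0.0101) in the slide-block fit. ITNK exceeded LAK by 0.41 ± 0.16, which missed the threshold (adjusted p = 0.0588) but passed in the slide-block fit (0.58, adjusted p = 0.0279) and when LAK 1, LAK 2 or ITNK 4 was left out (0.49, 0.48 and 0.47, adjusted p = 0.034, 0.0451 and 0.0489).

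Psmb10 stood at 11.11, 11.18, 11.44 and 11.13 in DN3, 11.50, 11.01, 11.32 and 11.01 in ITNK, and 11.28, 10.96, 10.66 and 10.90 in LAK. The groups overlapped, and LAK minus DN3 was -0.26 ± 0.15 (adjusted p = 0.138). Leaving out LAK 1 alone gave -0.37 (adjusted p = 0.0407), and a second probe of the gene gave -0.00.

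Psmb5, the constitutive counterpart of Psmb8, was dim, with 5.84, 6.82, 6.67 and 6.64 in DN3, 6.36, 7.04, 7.27 and 6.93 in ITNK, and 7.64, 7.47, 7.67 and 6.50 in LAK. LAK 4 lay inside the DN3 range and the other LAK arrays above every array of both groups. LAK exceeded DN3 by 0.83 ± 0.28 (adjusted p = 0.0188), a call that was lost without LAK 1, LAK 3 or DN3 1 (0.72, 0.71 and 0.61, adjusted p = 0.0543, 0.0531 and 0.0663) and in the slide-block fit (1.23, adjusted p = 0.0603). ITNK minus LAK was -0.42 (adjusted p = 0.272) with all arrays and -0.69 (adjusted p = 0.0439) without LAK 4.

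Psmb6, the counterpart of Psmb9, had 10.45, 10.60, 10.53 and 10.53 in DN3, 10.65, 10.52, 10.71 and 10.32 in ITNK, and 10.89, 10.81, 10.71 and 10.97 in LAK. All LAK arrays were above all DN3 arrays, and the lowest of them lay just above the highest ITNK array. The rise over DN3 was 0.32 ± 0.10 (adjusted p = 0.0155), with 0.25 (adjusted p = 0.286) in the slide-block fit and 0.07 (adjusted p = 0.669) for a second, dimmer probe. ITNK minus LAK was -0.30 ± 0.10 (adjusted p = 0.0389), and this call was lost in the slide-block fit (-0.26, adjusted p = 0.146) and without LAK 1, LAK 2, LAK 4, ITNK 2, ITNK 4 or DN3 4 (-0.28, -0.31, -0.26, -0.29, -0.22 and -0.30).

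Psmb7, the counterpart of Psmb10, read 10.38, 10.39, 10.22 and 10.37 in DN3, 10.47, 10.08, 10.61 and 10.20 in ITNK, and 10.43, 10.34, 10.07 and 10.28 in LAK. These ranges overlapped throughout, and no comparison passed (differences from -0.06 to 0.06). Of the 3 dimmer Psmb7 probes, 1 was higher in LAK than in DN3 (0.42, adjusted p = 0.0317) and the others gave 0.33 and 0.00. Between ITNK and DN3 none of the 6 catalytic subunits passed: the differences were -0.20, -0.18 and -0.01 for Psmb8, Psmb9 and Psmb10 and 0.41, 0.02 and -0.00 for Psmb5, Psmb6 and Psmb7. The first of these, Psmb8, has a 95% interval from -0.49 to 0.08, which overlaps that of LAK minus DN3 (-0.96 to -0.39). That of its counterpart Psmb5 runs from -0.19 to 1.00 and also overlaps that of LAK minus DN3 (0.23 to 1.42). These differences share the DN3 arrays.

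**Figure D1:**
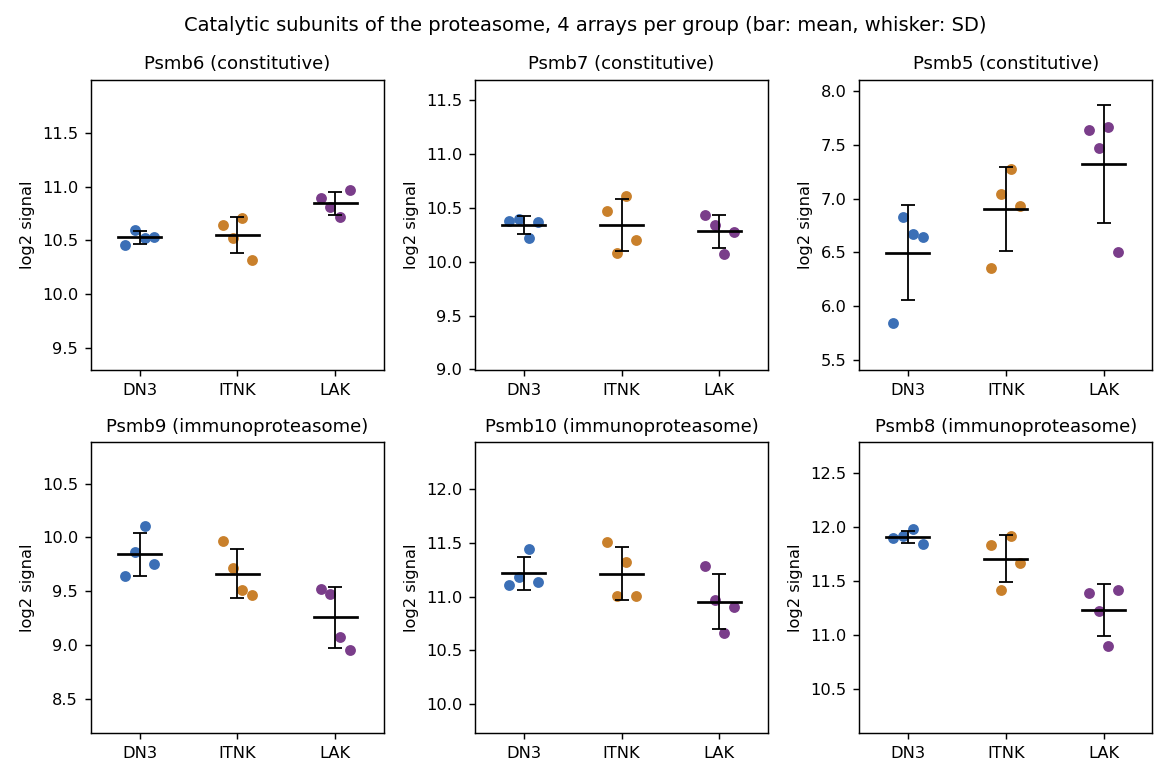
Log2 signal (vertical axis, the same span in every panel) of the 6 catalytic subunits in DN3, ITNK and LAK, 1 point an array, with the mean and SD of 4 arrays. The LAK points of Psmb8 and Psmb9 lie below all DN3 points and those of Psmb6 above them, while 1 of 4 LAK points of Psmb5 falls back into the DN3 range.

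Each immunoproteasome subunit was then set against its constitutive counterpart within the same array, which cancels a log2 shift common to both genes. It does not cancel processing that acts differently on a bright and a dim gene. Without background correction LAK minus DN3 was -0.65 for Psmb8 and 0.54 for the dim Psmb5, against -0.68 and 0.83 with it. The value itself mixes the brightness of 2 probes, so only its change between groups is read. Psmb8 minus Psmb5 was 6.06, 5.09, 5.31 and 5.19 in DN3, 5.48, 4.37, 4.64 and 4.74 in ITNK, and 3.75, 3.75, 3.23 and 4.91 in LAK. The LAK arrays all lay below the DN3 arrays, and LAK 4 came closest to them. The change from DN3 to LAK was -1.503 ± 0.42 (SE, n = 4), a 2.83-fold lower ratio, with an exact permutation p of 0.0286 (two-sided), the smallest that 4 against 4 arrays can give; over the 9 tests of 3 pairs in 3 comparisons it adjusted to 0.0857.

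Psmb9 minus Psmb6 was -0.81, -0.73, -0.42 and -0.78 in DN3, -0.68, -0.81, -1.20 and -0.85 in ITNK, and -1.38, -1.33, -1.64 and -2.01 in LAK. LAK stood apart from both other groups, and DN3 and ITNK overlapped. LAK minus DN3 was -0.90 ± 0.18 and ITNK minus LAK 0.70 ± 0.19, each with the smallest exact permutation p of 0.0286 and an adjusted p of 0.0857. With slide as a block the first became -1.19 and the second 0.85.

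Psmb10 minus Psmb7 was 0.73, 0.79, 1.22 and 0.76 in DN3, 1.04, 0.93, 0.71 and 0.80 in ITNK, and 0.85, 0.62, 0.59 and 0.62 in LAK. The groups overlapped, with LAK minus DN3 at -0.20 ± 0.13 (exact permutation p = 0.114, adjusted p = 0.147). None of the 9 pair tests passed after adjustment. ITNK minus DN3 was -0.61 ± 0.32, -0.20 ± 0.14 and -0.01 ± 0.14 for the 3 pairs in the same order (exact permutation p = 0.114, 0.286 and 0.971). The change of the first 2 pairs from DN3 to LAK stayed negative under each scaling and without each array in turn, at -1.84 to -1.28 for Psmb8 minus Psmb5 and -0.99 to -0.76 for Psmb9 minus Psmb6 when 1 array was left out.

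**Figure D2:**
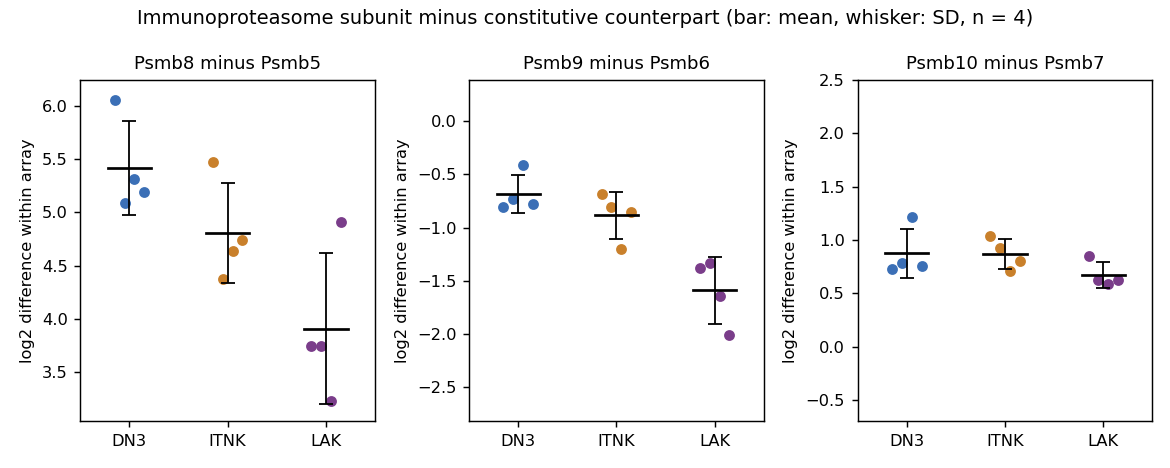
Log2 signal of an immunoproteasome subunit minus that of its constitutive counterpart within the same array (vertical axis, the same span in every panel), 1 point an array, with the mean and SD of 4 arrays. In the left and middle panels the LAK points lie below the DN3 points, by -1.503 and -0.90 in the mean; in the right panel the groups overlap.

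Over all 38 genes the differences were small beside those of the whole array. The sets are unlike in signal. Of the 38, 35 were detected on all 12 arrays, against 5835 of the 8100 genes, and 84.2% lay above the median signal of all genes. The part this has in the comparison was not tested. Between ITNK and DN3, 9 proteasome genes were higher and 3 lower (31.6% called, against 51.7% of the 8100 genes), 0 by as much as 2-fold (13.0% of all genes), and for 10 no array of one group reached the range of the other (26.3% against 47.8%). Their median absolute difference was 0.18, against 0.35 for all genes, and their median 0.01, against -0.05. Between ITNK and LAK, 3 were higher and 3 lower (15.8% against 33.7%), 0 by 2-fold (8.91%), with 4 not overlapping (10.5% against 31.8%), a median of 0.07 against -0.01 and a median absolute difference of 0.17 against 0.24. Between LAK and DN3, 9 were higher and 8 lower (44.7% against 60.5%), 1 by 2-fold (20.0%), with 15 not overlapping (39.5% against 56.4%), a median of -0.01 against -0.02 and a median absolute difference of 0.26 against 0.44. The median SD within a group was 0.17 for these genes and 0.19 for all genes. The ITNK mean lay between the DN3 and LAK means for 25 of the 38 (65.8%), against 52.2% of all genes.

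The balance of higher and lower calls depended on the scaling. With each array set to its median over all probes instead of quantile normalization, the median of all genes shifted to 0.19 for ITNK minus DN3, -0.05 for ITNK minus LAK and 0.24 for LAK minus DN3, and 32.5% and 12.5%, 13.1% and 13.4%, and 39.5% and 16.8% of all genes were higher and lower, against 23.5% and 28.2%, 18.0% and 15.7%, and 28.6% and 31.9% before. Of the proteasome genes 18, 0 and 20 were then higher and 0 lower in each comparison. Relative to the shift, their medians were 0.25, 0.06 and 0.21. The slide block left 5 higher and 1 lower for ITNK against DN3, 1 and 3 for ITNK against LAK, and 4 and 2 for LAK against DN3. The 9 higher genes of ITNK against DN3 fell to 3, 2, 5, 3 and 4 without ITNK 1, ITNK 3, DN3 1, DN3 3 and DN3 4. In ITNK against LAK the 3 higher genes became 5 without LAK 1 and 1 without LAK 3, LAK 4, ITNK 1, ITNK 3, DN3 1, DN3 2 or DN3 4, and the 3 lower genes became 0 without LAK 1 or ITNK 2 and 1 without LAK 2 or LAK 4.

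**Figure D3:**
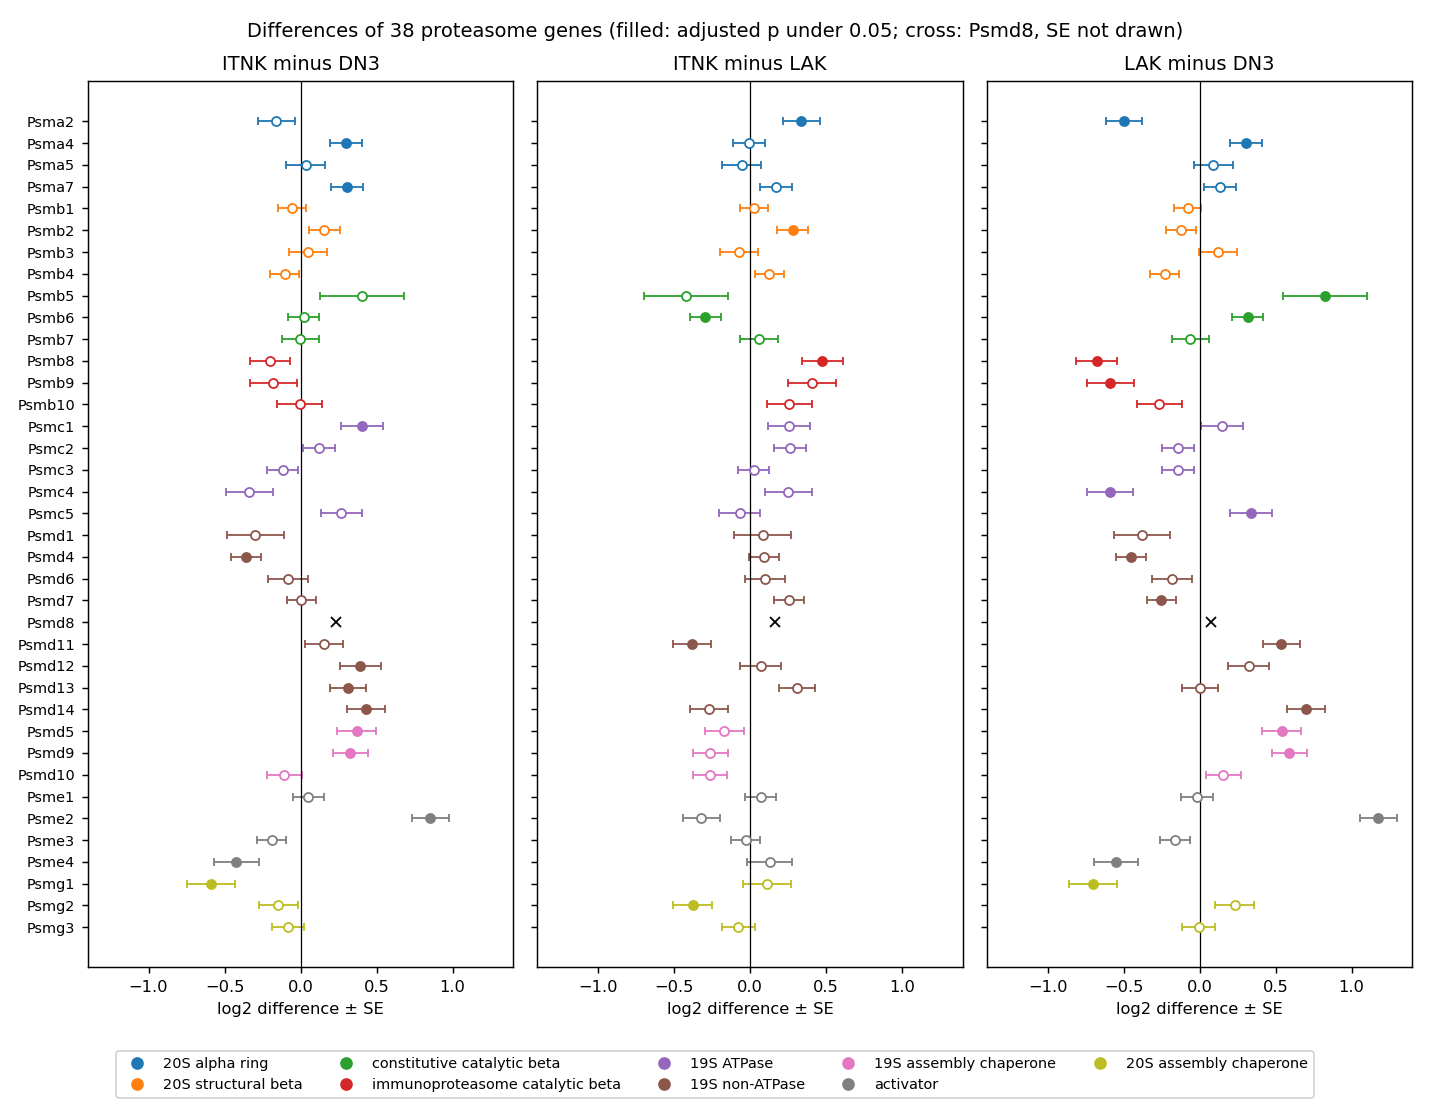
Log2 difference (horizontal axis) with its SE for the 38 proteasome genes, grouped by role, in ITNK minus DN3, ITNK minus LAK and LAK minus DN3; filled points passed at an adjusted p under 0.05. Psme2 has the highest value in the left and right panels (0.85 and 1.17), and most genes lie within 0.5 of 0.

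Psme2, the beta subunit of the 11S activator, had the largest differences from DN3 of all members, in ITNK and in LAK. Its log2 signal was 6.99, 7.06, 6.96 and 6.71 in DN3, 7.91, 7.44, 7.86 and 7.91 in ITNK, and 8.13, 8.0, 8.05 and 8.24 in LAK. The 3 groups did not overlap, with DN3 lowest and LAK highest. ITNK exceeded DN3 by 0.85 ± 0.12 (adjusted p = 5.50e-05) and LAK exceeded DN3 by 1.17 ± 0.12 (adjusted p = 1.57e-06). Both calls passed under every scaling, in the slide-block fit (0.96 and 1.39) and without each array in turn. ITNK minus LAK was -0.32 (adjusted p = 0.0585), and -0.43 (adjusted p = 0.0444) in the slide-block fit.

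Psme1, the alpha subunit of the same activator, passed in no comparison by its brightest probe, with 11.74, 11.91, 12.14 and 11.97 in DN3, 12.10, 12.02, 11.97 and 11.88 in ITNK, and 12.01, 11.97, 11.80 and 11.92 in LAK. The groups overlapped, and LAK minus DN3 was -0.02, with a 95% interval from -0.24 to 0.20; it turned to 0.60 (adjusted p = 0.00153) under median scaling, or 0.36 relative to the median of all genes, and to 0.34 (adjusted p = 0.00726) under median scaling over detected probes. A second, dimmer Psme1 probe was higher in ITNK than in DN3 by 0.39 (adjusted p = 0.0109).

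Psme3 (PA28 gamma, a nuclear activator) had 10.21, 10.32, 10.07 and 10.30 in DN3, 10.20, 9.97, 10.02 and 9.94 in ITNK, and 10.12, 10.05, 9.95 and 10.12 in LAK, and passed in no comparison. Psme4 (PA200, a single-chain activator of the core) had 9.60, 9.25, 9.48 and 9.61 in DN3, 9.37, 8.82, 9.26 and 8.80 in ITNK, and 9.15, 8.74, 8.89 and 8.96 in LAK. LAK lay wholly below DN3, by -0.55 ± 0.15 (adjusted p = 0.00487), and ITNK overlapped both. The lower value of ITNK than DN3, -0.42 ± 0.15 (adjusted p = 0.0263), was lost without ITNK 2, ITNK 4, DN3 1 or DN3 4 (-0.34, -0.33, -0.38 and -0.38). Both Psme4 calls were lost in the slide-block fit (adjusted p = 0.0631 for ITNK and 0.0786 for LAK) and under median scaling (-0.06 and -0.16).

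**Figure D4:**
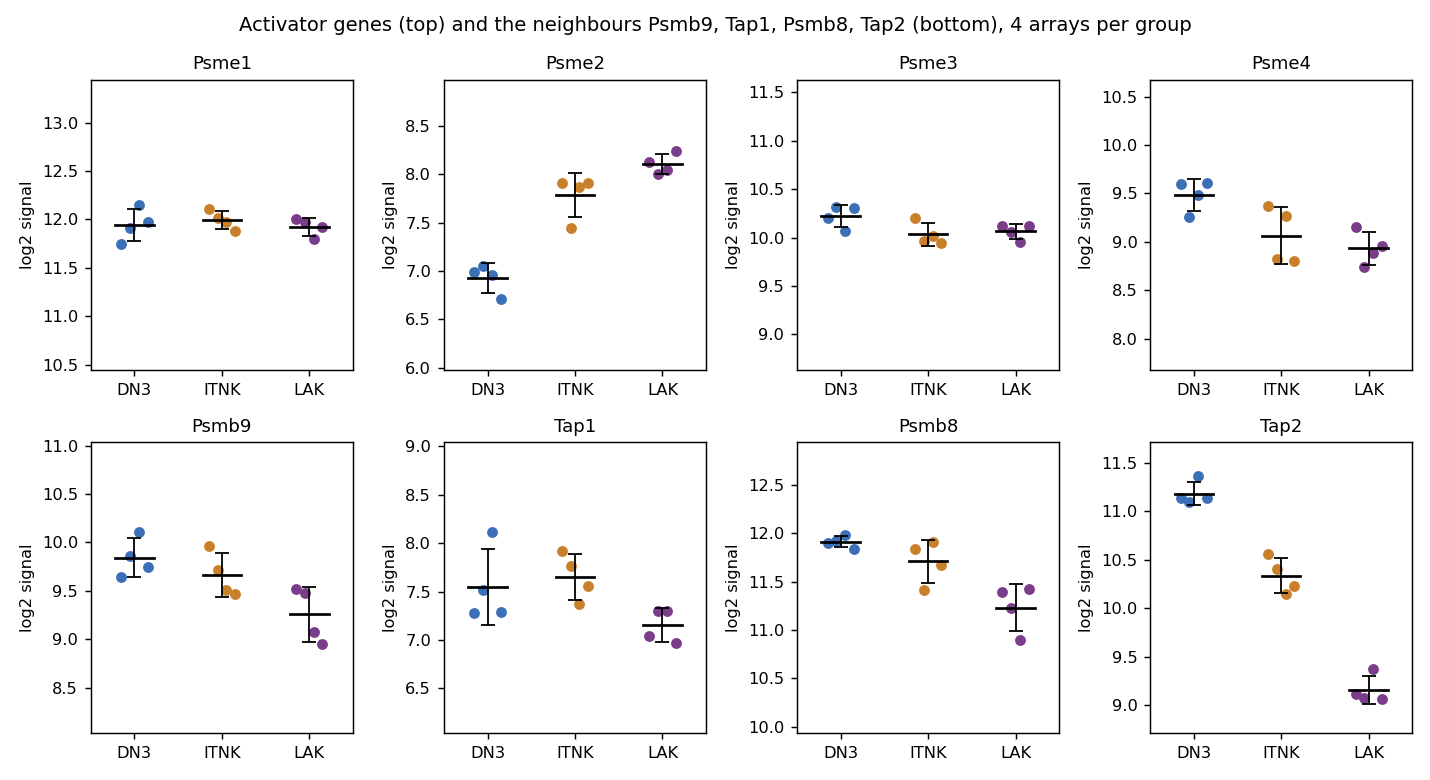
Log2 signal (vertical axis, the same span in every panel) of the activator genes Psme1 to Psme4 (top) and of the chromosome 17 neighbours Psmb9, Tap1, Psmb8 and Tap2 (bottom), 1 point an array, with the mean and SD of 4 arrays. Psme2 steps up from DN3 to ITNK to LAK without overlap, and Tap2 steps down in the same order.

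In the alpha ring, which gates the core, 4 of 8 genes were measured. Psma4 was higher in both ITNK and LAK than in DN3 (0.30 and 0.31, adjusted p = 0.0279 and 0.0206), with 11.07, 11.12, 10.83 and 11.03 in DN3 and no ITNK or LAK array under 11.12; in the slide-block fit the ITNK call passed and the LAK call did not (0.35 and 0.41, adjusted p = 0.041 and 0.0892). By its brightest probe Psma7 was higher in ITNK than in DN3 (0.31, adjusted p = 0.0273), a call lost in the slide-block fit (0.30, adjusted p = 0.0802), and passed in neither other comparison. A second, dimmer Psma7 probe was higher than in DN3 in both ITNK and LAK (0.45 and 0.31, limma adjusted p = 0.00479 and 0.0294). Psma2 was lower in LAK than in DN3, with 12.84, 12.76, 12.43 and 12.61 against 13.19, 13.10, 13.13 and 13.22 (-0.50 ± 0.12, adjusted p = 0.00268), a call that was lost in the slide-block fit (-0.22, adjusted p = 0.376) and a sign that turned to 0.12 (not passing) under median scaling. Psma2 was 0.34 higher in ITNK than in LAK (adjusted p = 0.0451), a call that was lost with each array left out except LAK 1 and ITNK 2. Psma5 passed in no comparison.

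The structural beta subunits Psmb1, Psmb2, Psmb3 and Psmb4, which have no cutting site of their own, gave few calls: 0 of 4 passed in either comparison with DN3, where their differences ran from -0.23 to 0.16. Psmb2 alone passed between ITNK and LAK (0.28 ± 0.10, adjusted p = 0.0468), and this call was lost with each array left out except ITNK 2. Psmb4 missed the threshold between LAK and DN3 (-0.23, adjusted p = 0.0501), although its arrays did not overlap.

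Of the 19S ATPases, the ring that unfolds substrates, 5 of 6 were measured. Psmc4 was lower in LAK than in DN3, with 10.64, 10.29, 10.02 and 10.61 against 11.05, 10.98, 10.82 and 11.05 (-0.59 ± 0.15, adjusted p = 0.00417), a drop of 0.29 that did not pass (adjusted p = 0.38) in the slide-block fit and of 0.14 under median scaling. Psmc1 was higher in ITNK than in DN3, with 8.31, 7.94, 8.18 and 7.78 against 7.61, 7.76, 7.51 and 7.72 (0.41 ± 0.14, adjusted p = 0.0263); the groups did not overlap, but ITNK 4 (7.78) was barely above DN3 2 (7.76) and the call was lost without ITNK 1, ITNK 3, DN3 1 or DN3 3 and in the slide-block fit (0.33, adjusted p = 0.138). Psmc5 was higher in LAK than in DN3 (0.34, adjusted p = 0.0465), a call lost in the slide-block fit (0.30, adjusted p = 0.358), and Psmc2 and Psmc3 passed in no comparison.

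Among the 9 measured non-ATPase subunits of the cap, Psmd14, the deubiquitinase of the lid, rose in both killer populations. It had 6.28, 6.14, 6.28 and 6.36 in DN3, 6.88, 6.71, 6.74 and 6.45 in ITNK, and 7.08, 6.72, 6.83 and 7.21 in LAK. No DN3 array reached the others, and ITNK overlapped LAK. The differences were 0.43 ± 0.13 for ITNK (adjusted p = 0.0104) and 0.70 ± 0.13 for LAK (adjusted p = 2.49e-04), and 0.33 and 0.50 (adjusted p = 0.0888 and 0.076) in the slide-block fit; a second probe gave 0.28 and 0.20, neither passing.

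Psmd4, a ubiquitin receptor, went the other way, with 11.82, 11.53, 11.58 and 11.55 in DN3, 11.37, 11.20, 11.11 and 11.37 in ITNK, and 11.14, 11.20, 11.09 and 11.25 in LAK. Its drop of 0.36 in ITNK (log2 difference -0.36 ± 0.10, adjusted p = 0.00821) and of 0.45 in LAK (-0.45 ± 0.10, adjusted p = 0.00135) passed in the slide-block fit (-0.38 and -0.49), while median scaling turned the signs to 0.12 and 0.07, neither passing. Psmd11, a lid subunit, was highest in LAK, with 6.26, 5.99, 5.92 and 6.41 against 5.48, 5.74, 5.52 and 5.70 in DN3 and 5.94, 5.64, 5.68 and 5.79 in ITNK. LAK exceeded DN3 by 0.54 ± 0.12 (adjusted p = 0.00177), and ITNK minus LAK was -0.38 ± 0.12 (adjusted p = 0.0276), the latter lost without LAK 1, LAK 4, ITNK 2 or ITNK 3. Both calls were lost in the slide-block fit (0.48 and -0.36, adjusted p = 0.0957 and 0.108).

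Psmd12 and Psmd13, both of the lid, were higher in ITNK than in DN3 (0.39 and 0.31, adjusted p = 0.0245 and 0.041), also in the slide-block fit (0.46 and 0.39). Psmd7 was lower in LAK than in DN3 by its brightest probe (-0.25, adjusted p = 0.0352), but its 3 probes were called in opposite directions: the other two gave 0.36 and -0.98, so no direction is given for the gene. Psmd1 passed by 1 of its 3 probes between LAK and DN3 (0.72), not by its brightest (-0.38, adjusted p = 0.0949), and Psmd6 passed in no comparison.

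Psmd8 had 2 separate levels. Its log2 signal was 5.47 in DN3 2, 4.84 in ITNK 2 and 4.61 in LAK 3, and 8.22 to 8.86 on the other 9 arrays. The deposited intensities behind them were 78.7 to 81.2 on the 3 arrays and 254.5 to 591.2 on the others. With SDs this wide, no Psmd8 comparison could be read (SE 1.04).

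The chaperones Psmd5, Psmd9 and Psmd10 assemble the 19S base by binding its ATPases. Psmd5, a dim gene, was higher in ITNK (0.37, adjusted p = 0.0265) and in LAK (0.54, adjusted p = 0.00225) than in DN3, with 5.50, 5.85, 5.82 and 5.64 in DN3 and every ITNK and LAK array at 5.87 or above. Both calls passed in the slide-block fit (0.52 and 0.83). The ITNK call was lost without background correction (0.18, limma adjusted p = 0.0501) and under median scaling over detected probes (0.32, adjusted p = 0.0521). Psmd9, detected on 1, 3 and 4 arrays of DN3, ITNK and LAK, met the detection rule only through the groups where it was brighter, so its differences from DN3 (0.33 in ITNK and 0.59 in LAK) are given as values and not as a result, although it counts among the 9 genes called higher in each of these comparisons. Psmd10 (gankyrin) did not pass by its brightest probe in the fit without slide (0.16 between LAK and DN3 and -0.26 between ITNK and LAK), but did in the slide-block fit (0.48 and -0.42, adjusted p = 0.037 and 0.018). Between LAK and DN3 its 2 dimmer probes gave 0.71 and 0.66 (adjusted p = 1.44e-05 and 4.11e-05).

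Psmg1, a chaperone of the alpha ring, had the deepest drop of all members. It read 8.71, 8.98, 8.5 and 8.59 in DN3, 8.17, 7.74, 8.48 and 8.02 in ITNK, and 8.15, 7.87, 7.78 and 8.18 in LAK. Neither group reached DN3, although ITNK 3 (8.48) came close to DN3 3 (8.5). The differences were -0.59 ± 0.16 for ITNK (adjusted p = 0.00636) and -0.70 ± 0.16 for LAK (adjusted p = 0.00155), -0.44 and -0.41 (adjusted p = 0.0726 and 0.245) in the slide-block fit, and -0.30 and -0.37 under median scaling, where neither passed. Psmg2, its partner in the complex, was lower in ITNK than in LAK, with 8.78, 8.54, 8.98 and 8.92 against 9.39, 9.12, 8.87 and 9.35 (-0.38 ± 0.13, adjusted p = 0.0352). That call was lost without LAK 1, LAK 2, LAK 4, ITNK 1 or ITNK 2. Psmg3 passed in no comparison.

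**Figure D5:**
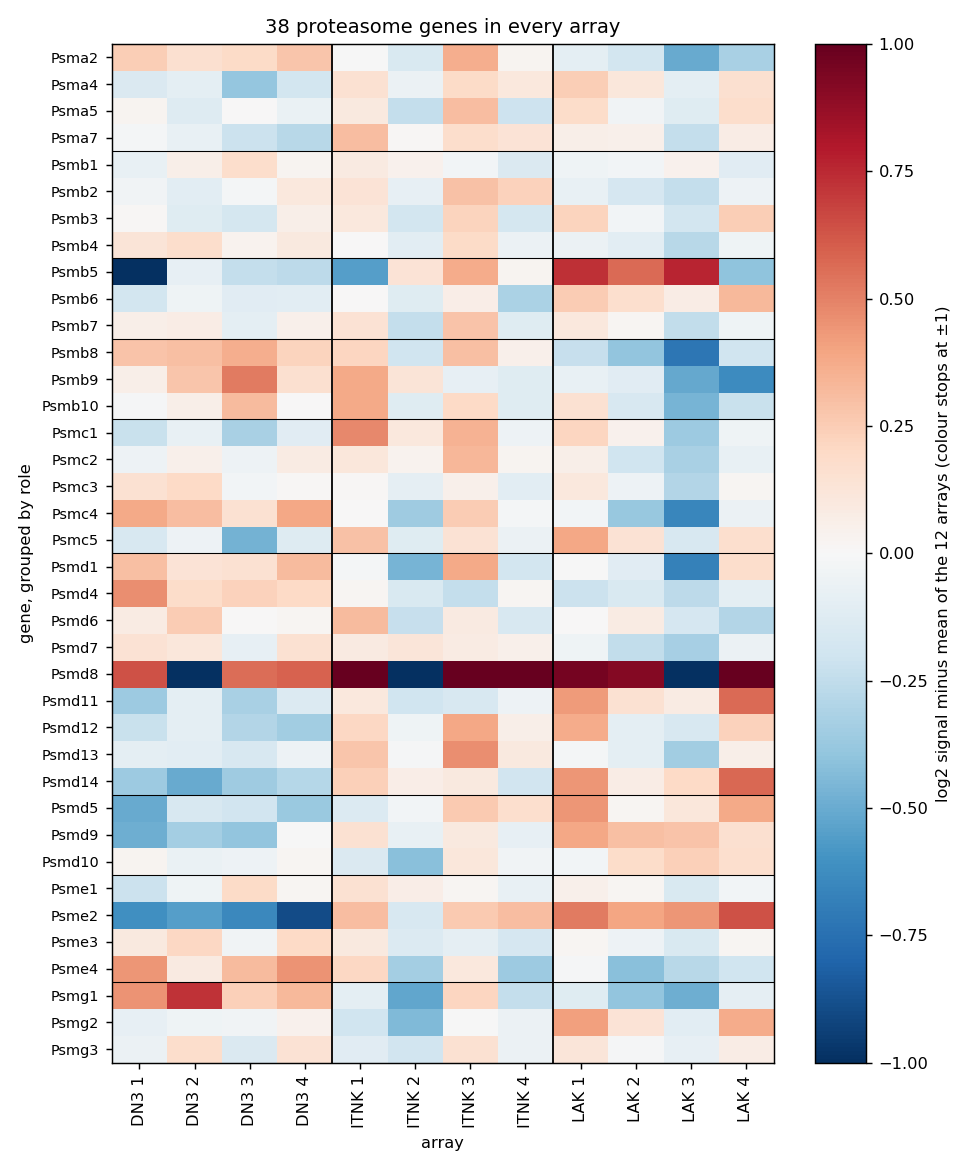
Log2 signal minus the gene's mean over 12 arrays (colour, clipped at ±1) for the 38 proteasome genes (rows, grouped by role) in every array (columns). Psme2 and Psmd14 are low in the 4 DN3 columns, Psmb8 and Psmb9 are low in the LAK columns, and Psmd8 is low in DN3 2, ITNK 2 and LAK 3.

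Genes that act with the proteasome were taken from lists. Of 15 maturation factors, receptors and associated proteins 7 were measured, and 1 was higher and 2 lower in ITNK than in DN3 (median -0.09 against -0.05 for all genes), 1 higher and 0 lower in ITNK than in LAK (0.08 against -0.01), and 1 higher and 3 lower in LAK than in DN3 (-0.22 against -0.02). The shares called, in this order, were 42.9%, 14.3% and 57.1%, below the 51.7%, 33.7% and 60.5% of all genes. Pomp, the chaperone that completes the core and is used for the immunoproteasome, had 11.40, 11.39, 11.37 and 11.40 in DN3, 11.72, 11.64, 11.92 and 11.82 in ITNK, and 11.998, 12.02, 11.90 and 11.96 in LAK. It rose by 0.39 ± 0.09 in ITNK and 0.58 ± 0.09 in LAK over DN3 (adjusted p = 0.00211 and 5.48e-05). Ecpas, a scaffold that binds the 26S proteasome, had 7.12 to 7.42 in DN3 and 6.12 to 6.46 elsewhere, with differences of -0.85 ± 0.10 and -0.96 ± 0.10 (adjusted p = 9.27e-06 and 1.63e-06).

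Of 8 transcription factors of proteasome genes and proteins that activate them, 4 were measured. Between ITNK and DN3 2 were higher and 0 lower (median 0.36 against -0.05 for all genes), between ITNK and LAK 1 and 0 (0.02 against -0.01), and between LAK and DN3 2 and 0 (0.27 against -0.02). Thus 50%, 25% and 50% were called, below the 51.7%, 33.7% and 60.5% of all genes. Nfe2l1, which raises proteasome genes when the proteasome is inhibited, was higher in LAK than in DN3 (0.68 ± 0.19, adjusted p = 0.00728; 0.63 in the slide-block fit, adjusted p = 0.173), as was its partner Mafg (0.60, adjusted p = 3.77e-04). Nfe2l2, a regulator of the response to oxidative stress, was dim and detected on 1, 4 and 1 arrays of DN3, ITNK and LAK. It met the detection rule only through ITNK, the group where it was brightest, so its place among the higher genes of both ITNK comparisons (0.63 and 0.70) is no result.

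Of 11 genes of MHC class I loading and presentation 9 were measured. Between ITNK and DN3 5 were higher and 1 lower (median 0.69 against -0.05 for all genes), between ITNK and LAK 3 and 0 (0.26 against -0.01), and between LAK and DN3 4 and 1 (0.61 against -0.02). The list had 66.7%, 33.3% and 55.6% called, against 51.7%, 33.7% and 60.5% of all genes. Tap2, a chain of the peptide transporter and the gene next to Psmb8, had 11.14, 11.10, 11.36 and 11.14 in DN3, 10.56, 10.40, 10.15 and 10.23 in ITNK, and 9.12, 9.07, 9.37 and 9.06 in LAK. The 3 groups were separate, with LAK below DN3 by -2.03 ± 0.12 (adjusted p = 2.90e-09) and ITNK by -0.85 ± 0.12 (adjusted p = 3.32e-05).

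Tap1, which shares its upstream stretch with Psmb9, had 7.28, 7.51, 8.11 and 7.29 in DN3, 7.92, 7.76, 7.37 and 7.56 in ITNK, and 7.04, 7.30, 7.30 and 6.97 in LAK. LAK overlapped DN3 and lay below ITNK. LAK minus DN3 was -0.40 ± 0.18 (adjusted p = 0.0697) and ITNK minus LAK 0.50 ± 0.18 (adjusted p = 0.0453). Of the other 7 measured genes of the list, 4 were higher in LAK than in DN3: Tapbp, Calr and Pdia3, which load peptides, and H2-K1, which presents them (0.68, 1.20, 0.69 and 0.78, adjusted p = 8.68e-04, 1.51e-04, 2.02e-04 and 0.0128). The H2-K1 call was lost in the slide-block fit (0.84, adjusted p = 0.148), and its other probes gave -0.14 and 0.40, neither passing. A second Tapbp probe did not pass either (0.28, adjusted p = 0.0552). Between LAK and DN3, Nlrc5, a transactivator of MHC class I genes (-0.48, adjusted p = 0.202), B2m, the light chain (0.10, adjusted p = 0.569), and H2-D1 by its brightest probe (0.61, adjusted p = 0.0538) did not pass. Other H2-D1 probes gave 0.97 (adjusted p = 0.00628) and 0.48 (adjusted p = 0.0519), so the H2-D1 call depended on the probe. Nlrc5 was higher in ITNK than in LAK (0.89, adjusted p = 0.044), a call lost in the slide-block fit (0.79, adjusted p = 0.176).

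Of 10 genes that carry interferon signals to the immunoproteasome, 9 were measured. Between ITNK and DN3 3 were higher and 3 lower (median 0.08 against -0.05 for all genes), between ITNK and LAK 3 and 2 (0.03 against -0.01), and between LAK and DN3 2 and 4 (-0.07 against -0.02). Calls made up 66.7%, 55.6% and 66.7% of the measured genes, against 51.7%, 33.7% and 60.5% of all genes. Irf1, the factor through which interferon gamma induces immunoproteasome genes, had 11.11, 11.24, 11.79 and 11.19 in DN3, 11.69, 11.42, 11.34 and 11.20 in ITNK, and 10.66, 10.49, 10.34 and 10.08 in LAK. LAK lay below both other groups, by -0.94 ± 0.17 against DN3 (adjusted p = 2.25e-04) and, as ITNK minus LAK, 1.02 ± 0.17 (adjusted p = 2.88e-04). Of the 5 Irf1 probes, ILMN_2624100 alone passed in neither (-0.13 and 0.39, adjusted p = 0.598 and 0.144). The interferon gamma receptor chains Ifngr1 and Ifngr2 were lower in LAK than in DN3 (-1.55 and -1.42, adjusted p = 1.86e-08 and 1.05e-06) and in ITNK than in DN3 (-0.89 and -1.39, adjusted p = 8.91e-06 and 2.49e-06). Irf8 was detected on 2 DN3, 4 ITNK and 4 LAK arrays, and met the detection rule through the groups where it was brighter. Its LAK minus DN3 difference (4.41) is therefore given as a value and not as a result. It still counts among the genes of this list called in both comparisons with DN3.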

How the data were processed

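Per the file headers, the authors deposited a linear mean bead intensity per probe and array, neither normalized nor background-subtracted, with a detection value, a fraction whose complement is the detection p-value, and a second table of the authors' processed values on the log2 scale, made by a method not given in the sources used here. From the intensities, background was corrected from the detection p-values, an offset of 16 added and the arrays quantile normalized (neqc, limma 3.58.1, R 4.3.3). Probes with a detection p under 0.01 on at least 4 of 12 arrays were kept, 13571 of 45274 with values, and the brightest probe represented a gene (8100 genes). All 12 arrays entered one limma fit with moderated tests. P-values were Benjamini-Hochberg adjusted over all 8100 genes and called under 0.05; those of single probes were adjusted over all kept probes. Named were the 6 catalytic subunits, the activators and, in each comparison, the 3 highest and 3 lowest members among those called; other members are given by role. Pair differences were tested by exact permutation of arrays. Both tests were checked on simulated data. Members and lists were chosen with earlier results of these data known. Replicate numbers did not pair the arrays: residual correlations of same-numbered arrays ran from -0.34 to 0.21. The number of arrays limits the precision.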

Additional observations from a re-analysis of the deposited data

Results flagged for a closer look

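Of 129 sets of 4 arrays examined, 12 held an array that lay far from the other 3, where chance gives about 1 in 20. The sets were each member, each pair difference and also Psmc3ip and Psme3ip1, which are no part of the proteasome, in each group. Psmd8 did so in every group, with log2 signals of 5.47 in DN3 2, 4.84 in ITNK 2 and 4.61 in LAK 3, and the authors' processed values show the same 3 arrays low (6.59, 6.33 and 6.23 against 8.45 to 8.99). Among 8100 genes Psmd8 was the only one with 3 arrays more than 2.5 below all others of their group, a limit set after its values were seen; its second probe was not detected. LAK 3 was also low for Psma7 (10.69, others 10.98 to 11) and for Psmc3ip (7.91, others 8.65 to 8.78). LAK 4 was low for Psmb5 (6.50, others 7.47 to 7.67). DN3 3 was low for Psmb7 (10.22, others 10.37 to 10.39) and Psmd7 (9.39, others 9.58 to 9.62), and its Psmb10 minus Psmb7 was high (1.22, others 0.73 to 0.79). LAK 1 was high in Psmb10 minus Psmb7 (0.85, others 0.59 to 0.62). DN3 1 was high for Psmd4 (11.82, others 11.53 to 11.58), and ITNK 2 low for Psme2 (7.44, others 7.86 to 7.91).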

How the results depend on the processing

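Of 675 recomputed counts and pair differences 599 stayed the same and 76 moved. A count stayed if it was within 1.5 times the first count. Where the permutation test was rerun, a pair difference stayed if its call did not change, and elsewhere if it lay within 1 SD. Of 1012 recomputed differences of named genes 886 kept their call, 108 lost it, 15 gained it and 3 reversed. Reversals were counted only for genes called in either fit. Uncalled genes could change sign, as Psmb6 did in ITNK against DN3 (0.02, and down to -0.03 with 1 array left out). The reversed values were Psmd4 in ITNK against DN3 (0.12) and Psme1 in LAK against DN3 (0.60) under median scaling, and Psme1 in LAK against DN3 (0.34) under median scaling over detected probes, a setting added after the data were seen. Why the settings differ was not tested. The counts of proteasome genes that moved were as follows. Without background correction and with an offset of 50, 7 were higher in ITNK than in LAK, and 5 with the authors' processed values. Median scaling gave 18 higher and 0 lower in ITNK against DN3, 0 and 0 in ITNK against LAK, and 20 and 0 in LAK against DN3; over detected probes it gave 1 lower in ITNK against DN3, 1 lower in ITNK against LAK and 16 higher in LAK against DN3. With every probe counted, 7 were lower in ITNK than in LAK and 16 higher in LAK than in DN3. The slide block gave 5 higher and 1 lower in ITNK against DN3, 1 higher in ITNK against LAK, and 4 higher and 2 lower in LAK against DN3. Within one slide, with 2 ITNK arrays against 4 others, 5 were higher and 1 lower than in DN3, and 0 and 0 than in LAK, where the fit holds fewer arrays. A fit of only the arrays compared gave 1 higher and 0 lower in ITNK against LAK. The replicate block gave 1 proteasome gene higher and 1 MHC class I gene called in ITNK against LAK; the numbers do not pair the arrays, and 3 of 12 arrays correlated best with their own number.

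Among the lists, ITNK against LAK gave 2 maturation genes called without background correction, with the authors' values, with the mean of probes and with the slide block, and 4 with every probe. For the transcription factors it gave 2 without background correction, with an offset of 50, with the mean of probes and with every probe, and 0 when detection on all 12 arrays was required. The interferon list gave 3 with detection on all arrays and 10 with every probe, and the MHC class I list 1 with no detection filter. In ITNK against DN3 the transcription factors gave 4 under median scaling and 1 with detection on all arrays, and the MHC class I list 10 with every probe. In LAK against DN3 the maturation list gave 2 with the mean of probes and 11 with every probe, the interferon list 10 with every probe, and the transcription factors 1 with the slide block. With slide as a block, LAK minus DN3 became -1.19 for Psmb9 minus Psmb6 and -0.43 for Psmb10 minus Psmb7.

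With 1 array left out, proteasome genes numbered 2 to 9 higher and 2 to 4 lower in ITNK against DN3, 1 to 5 and 0 to 3 in ITNK against LAK, and 6 to 10 and 7 to 9 in LAK against DN3. The transcription factors called numbered 1 to 3 in ITNK against DN3 (1 without ITNK 4 or DN3 2) and 1 to 2 in ITNK against LAK (2 without LAK 1 or ITNK 2), and the MHC class I genes 1 to 3 in ITNK against LAK (1 without LAK 2, LAK 4, ITNK 1, ITNK 2, ITNK 4 or DN3 2). Signal over background limits Psmb5, Psmd5, Psmd6, Psmd9, Psmd11, Psmd14 and Nfe2l2. Without background correction LAK minus DN3 fell from 0.54 to 0.27 for Psmd5, from 0.54 to 0.26 for Psmd11 and from 0.70 to 0.42 for Psmd14, each still passing.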
